A study of Mus musculus with 36 samples.

Results

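RNA of WT mouse keratinocytes kept in high calcium medium (HCM) was compared between 72 h and 24 h of culture. The comparison used 6 of the 36 libraries of the series, 3 at each time, chosen by the genotype, medium and time in their labels. C57BL/6N mice carrying the tm1b allele of Pkp4, which lacks a critical exon, were bred with a FLPe line to remove its lacZ reporter. The mice obtained were then backcrossed onto C57BL/6J. The cells were primary keratinocytes from newborn Pkp4+/+ pups of this colony. Their labels name no transgene, and they grew on collagen I in LCM, a low calcium medium with calcium-depleted serum, EGF, insulin, hydrocortisone and cholera toxin, or in HCM, which is the same medium with CaCl2 added. In the series 24 h stands for the period in which junctions form, and 72 h for their maturation and for differentiation. The same change with time was also measured in 6 libraries each of WT cells in LCM, PKP4-KO cells (Pkp4-/-) in HCM and Rescue cells in HCM. Rescue is a line of PKP4-KO cells transduced with a lentivirus that encodes human PKP4 tagged with EGFP. The labels describe the 3 libraries of a group as biological replicates without giving separate pups or dishes, so p-values measure the spread between these samples only. The labels name the 72 h cultures HD and the 24 h cultures LD, and cell density, hours since plating and hours in HCM cannot be told apart in this design.

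Keratinocytes of the basal layer of the epidermis divide and are anchored to the basement membrane by integrins and hemidesmosomes. On their way to the surface they leave the cell cycle, exchange basal for suprabasal keratins, and build a cornified envelope of small proline-rich (SPRR) proteins, late cornified envelope (LCE) proteins and loricrin that transglutaminases cross-link beneath the plasma membrane. Raising extracellular calcium starts cell-cell junction assembly and much of this program in culture. Many of the envelope genes lie side by side in the epidermal differentiation complex, on chromosome 3 in the mouse.

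The 6 libraries held between 13837045 and 18295615 counts each, with at least 1 read on 22782 genes. A floor of 3 counts corresponds to between 0.153 and 0.308 CPM in them and covers counting error only. Pkp4, of which PKP4-KO cells lack a critical exon, was at 48.9, 41.6 and 41.5 CPM at 24 h and 38.5, 43.8 and 33.4 CPM at 72 h in WT (-0.19 on the log2 scale, adjusted p = 0.435). A pair of libraries stood apart, replicate 2 at 24 h and replicate 3 at 72 h. Their deviations from the means of their groups correlated with r = 0.703 across genes, which are not independent replicates. Both held more reads on short genes relative to long ones than the other libraries. A measure was the median deviation of genes under 1000 bases less that of genes over 4000 bases, from the mean of the 6 libraries. It was 0.59 in replicate 2 at 24 h and 1.32 in replicate 3 at 72 h, on the log2 scale. In the other libraries it was -1.10 and -0.60 at 24 h and 0.01 and -0.21 at 72 h. On CPM with TMM factors, cytosolic ribosomal protein genes were at 188865 and 315748 in these 2 libraries, against 78399 and 115478 in the other 24 h libraries and 189054 and 167277 in the other 72 h libraries. One of the pair belongs to each time, so results that rest on them are given with and without both. Leaving out both does not balance the measure of short against long genes between the times. In it the remaining 72 h libraries still lay above the remaining 24 h libraries.

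**Figure D1:**
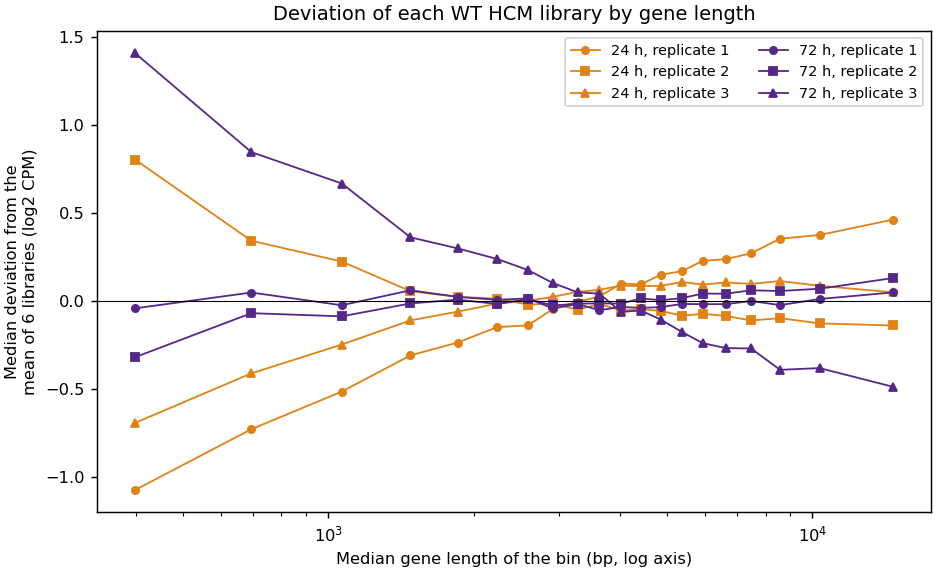
Median deviation of a library from the mean of the 6 libraries (log2 CPM, vertical axis) in 20 bins of genes by length (bases, logarithmic horizontal axis), 1 line for each of the 6 WT libraries in HCM. Replicate 2 at 24 h and replicate 3 at 72 h lie above the other 4 libraries among the shortest genes.

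Of the 15114 genes tested with edgeR's quasi-likelihood test, 1384 (9.16%) were higher and 1313 (8.69%) lower at 72 h at an adjusted p of 0.05, and the median log2 fold change was -0.03. The 3 libraries at 72 h did not overlap the 3 at 24 h for 4379 genes (29.0%). With both libraries that stood apart left out, 1668 genes passed, 1583 of them among the 2697 of all 6 libraries. Direction went with gene length. Among 1753 genes of up to 1000 bases 150 were higher and 18 lower, with a median of 0.59, and among 7219 genes over 4000 bases 461 were higher and 830 lower, with a median of -0.18. Without TMM factors the median of all genes was -0.27 and 30% of 2617 calls were higher, against 51.3% with them, so falls counted below are relative to that scaling. A fit of the 6 libraries alone, with its own estimate of the spread, called 716 genes and kept 126 of 237 named genes. A fit with an offset for gene length called 2880 genes and kept 2266 of the 2697. The shares of all genes, 9.16% higher and 8.69% lower, are the background of each list count below. In bulk RNA, fewer cells of a type and less RNA per cell cannot be told apart, and this holds for each fall and rise below.

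Culture to 72 h was followed by higher levels of the epidermal differentiation complex, above all of the LCE genes. Between S100a13 and S100a10, at chr3:90416091-93474510 of GRCm39, 45 of 68 tested genes rose and 2 fell, with a median log2 fold change of 2.61. In the stretch from Lor to Lce1m, chr3:91987578-92926367, 39 of 47 tested genes rose and none fell, with a median of 3.73, and 38 rose and none fell with both libraries that stood apart left out. In the fit of the 6 libraries alone 37 of 46 rose. With the offset for gene length 40 rose and 1 fell, with a median of 3.20. The bounds of that stretch were set after the values had been seen. In the 2 Mb on both sides of the complex, 5 of 88 tested genes rose and 9 fell, with a median of -0.04. The reads of the stretch made up 0.559, 0.652 and 0.461% of all counts at 24 h and 2.26, 2.16 and 2.55% at 72 h. All 14 tested members of the Lce1 family rose, by 2.65 to 6.70 on the log2 scale, as did all 6 of the Lce3 family, by 3.88 to 5.20. Of 12 tested Sprr2 genes 9 rose, and the family ranged from -0.10 to 3.73. The members of these families resemble each other closely. The authors removed secondary alignments before counting, but how the remaining reads that fit several copies were counted is not given in the sources used here, so the split of reads within a family is uncertain.

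The 150 bases before the start of 1 gene from each group of the stretch show what lies upstream of genes that moved together. Within the Lce1, Lce3 and Sprr2 families the member with the highest mean at 72 h was taken, and the sequences came from RefSeq windows for GRCm38.p6 that matched chromosome 3 of GRCm39 once each. They are written 5′ to 3′ on the strand of the gene, with matches to TATAAA and to TGANTCA, the letters bound by AP-1, in capitals. Lor lies on the minus strand with its window at chr3:91990450-91990599, Lce1a1 on the minus strand at chr3:92555615-92555764, Lce3c on the plus strand at chr3:92851643-92851792, and Sprr2d on the plus strand at chr3:92246297-92246446.
Lor: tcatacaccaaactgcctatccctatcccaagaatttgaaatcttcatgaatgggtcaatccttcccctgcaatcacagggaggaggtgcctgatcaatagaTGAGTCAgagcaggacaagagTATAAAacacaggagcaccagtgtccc
Lce1a1: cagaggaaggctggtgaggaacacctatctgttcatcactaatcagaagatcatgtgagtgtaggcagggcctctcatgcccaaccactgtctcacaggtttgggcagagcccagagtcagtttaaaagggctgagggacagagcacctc
Lce3c: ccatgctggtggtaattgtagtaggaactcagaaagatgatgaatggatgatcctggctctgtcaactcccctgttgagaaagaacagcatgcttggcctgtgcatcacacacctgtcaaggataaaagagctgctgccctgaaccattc
Sprr2d: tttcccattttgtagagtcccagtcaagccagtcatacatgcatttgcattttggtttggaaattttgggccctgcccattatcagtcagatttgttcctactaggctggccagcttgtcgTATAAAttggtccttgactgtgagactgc
In the Lor window TATAAA began 27 and TGANTCA 48 bases before the start, in the Sprr2d window TATAAA began 29 bases before it, and the Lce1a1 and Lce3c windows held neither. Searched on both strands, TATAAA was present in 16 of the 39 windows that could be matched to the 47 tested genes (41.0%) and in 2184 of all 27025 windows (8.08%). TGANTCA was present in 5 of the 39 (12.8%) and in 1153 of all windows (4.27%). Many of the 47 genes belong to the Lce1, Lce3 and Sprr2 families, so their windows are not independent of each other. The 47 also include genes that did not rise. A match of letters is a description and not a binding site.

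**Figure D2:**
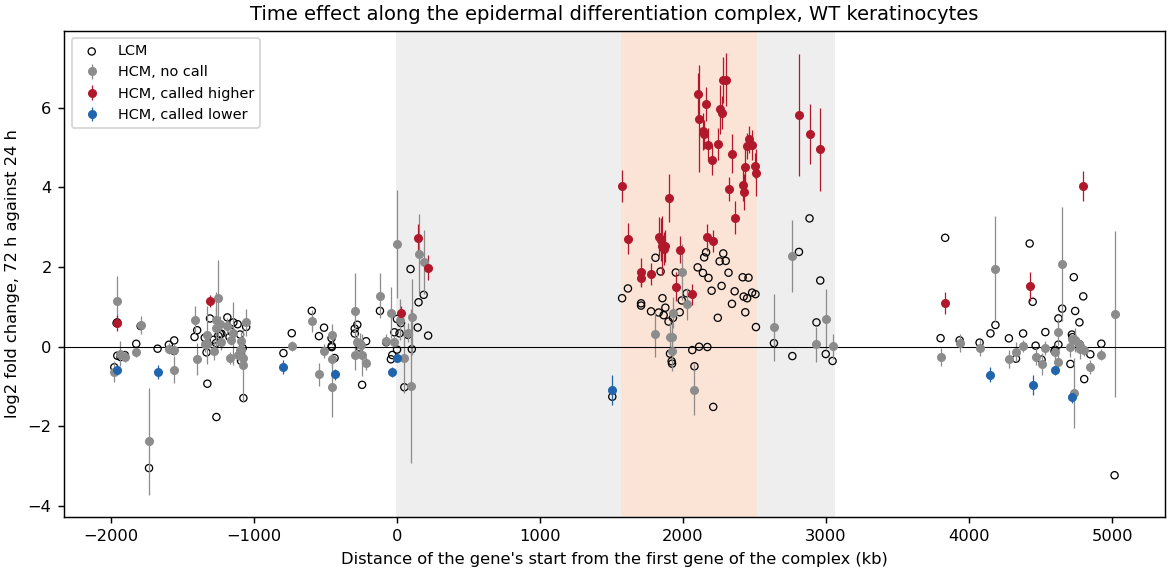
Log2 fold change of 72 h against 24 h (vertical axis) of the tested genes of the epidermal differentiation complex and its flanks by distance from the first gene of the complex (kb, horizontal axis), filled points with SE bars for WT in HCM and open circles for WT in LCM. Genes from Lor to Lce1m have a median of 3.73 in HCM and 1.22 in LCM, and the flanks lie around 0.

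Loricrin (Lor, chr3:91987578-91990449), the main protein of the mature envelope, was at 17.6, 10.6 and 15.4 CPM at 24 h and 223, 249 and 243 CPM at 72 h. The groups did not overlap, and the log2 fold change was 4.03 ± 0.39 (SE; adjusted p = 2.08e-08). Lce1a1 was at 3.55, 7.18 and 4.08 CPM at 24 h and 175, 188 and 258 CPM at 72 h, a rise of 5.40 ± 0.46 (SE; adjusted p = 1.54e-09). Lce3e was at 16.3, 21.2 and 11.5 CPM at 24 h and 602, 569 and 625 CPM at 72 h, with 5.20 ± 0.34 (SE; adjusted p = 2.81e-11), and its lowest library at 72 h was far above the highest at 24 h. Involucrin (Ivl), which is laid down earlier as a scaffold, rose by less and was at 56.8, 56.0 and 61.5 CPM at 24 h and 154, 154 and 124 CPM at 72 h, a log2 fold change of 1.31 ± 0.27 (SE; adjusted p = 8.87e-04). Sprr1a, a cross-bridging protein, was at 1488, 2079 and 1185 CPM at 24 h and 6956, 6500 and 12300 CPM at 72 h (2.44 ± 0.33 SE, adjusted p = 4.94e-06), again without overlap. Over the list of 59 cornified envelope genes, 44 of 58 tested rose and none fell, with a median of 2.67, beside 9.16% and 8.69% of all genes. With both libraries that stood apart left out 43 rose and none fell. The 14 members that did not pass included envoplakin (Evpl, -0.12), periplakin (Ppl, 0.30) and sciellin (Scel, -0.33), and also the small proline-rich gene Sprr2b (0.32). Filaggrin (Flg, 2.28) was another of them. Its means were 0.10 CPM at 24 h, below the floor of 3 counts, and 0.54 CPM at 72 h. S100 proteins, calcium-binding proteins of which several lie in the same complex, had 2 of 14 tested members higher and a median of 0.68, beside 4 higher without replicate 2 at 24 h and with the offset for gene length, and S100a8 (2.33) and S100a9 (2.13) did not pass.

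Over all protein-coding genes above 5 CPM on average whose libraries did not overlap, the 12 largest rises were Spink12, a serine protease inhibitor of the Kazal type, with 6 counts in total at 24 h and 1178 at 72 h (7.85 ± 0.80 SE, adjusted p = 7.77e-08), and 11 genes of the envelope region. Genes near 0 at 24 h reach this mean through 72 h alone, and their fold rests on few counts, so that it gives no firm rank. Spink12 was at 9.77 without replicate 2 at 24 h, which held 5 of its 6 counts there, and at 7.22 without replicate 1, and Lce1k, with 10 counts at 24 h, was at 7.98 without replicate 2. The genes of the region were Lce1k (6.70), Lce1j (6.69), 2210017I01Rik (6.34), Lce1a2 (6.08), Lce1h (5.96), Lce1i (5.87), Lce1a1 (5.40), Lce1b (5.33), Lce3e (5.20), Lce1g (5.09) and Lce1d (5.07). Follistatin (Fst, chr13:114588731-114595521), a secreted antagonist of activin, was at 141, 93.4 and 147 CPM at 24 h and 20.6, 24.4 and 9.64 CPM at 72 h, the largest fall in the main fit at -2.79 ± 0.35 (SE; adjusted p = 1.65e-06). Over the alternatives Fst lay at -3.06 to -2.50 and Moxd1, given below, at -3.02 to -2.67, so their order is not firm. Among the 12 largest falls were also fibronectin (Fn1) at -2.28, Sulf1, a heparan sulfate sulfatase, at -2.09 and cadherin 6 (Cdh6) at -2.54. The alarmin Il33 was at 165, 114 and 119 CPM at 24 h and 27.9, 31.5 and 24.2 CPM at 72 h, a log2 fold change of -2.25 ± 0.23 (SE; adjusted p = 4.63e-08) without overlap. Also among them were Moxd1 (-2.78), Krt42 (-2.72), AU018091 (-2.61), the RNA sensor Ddx58 (-2.03), the scaffold protein Akap12 (-2.03) and Gpr50 (-2.01).

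**Figure D3:**
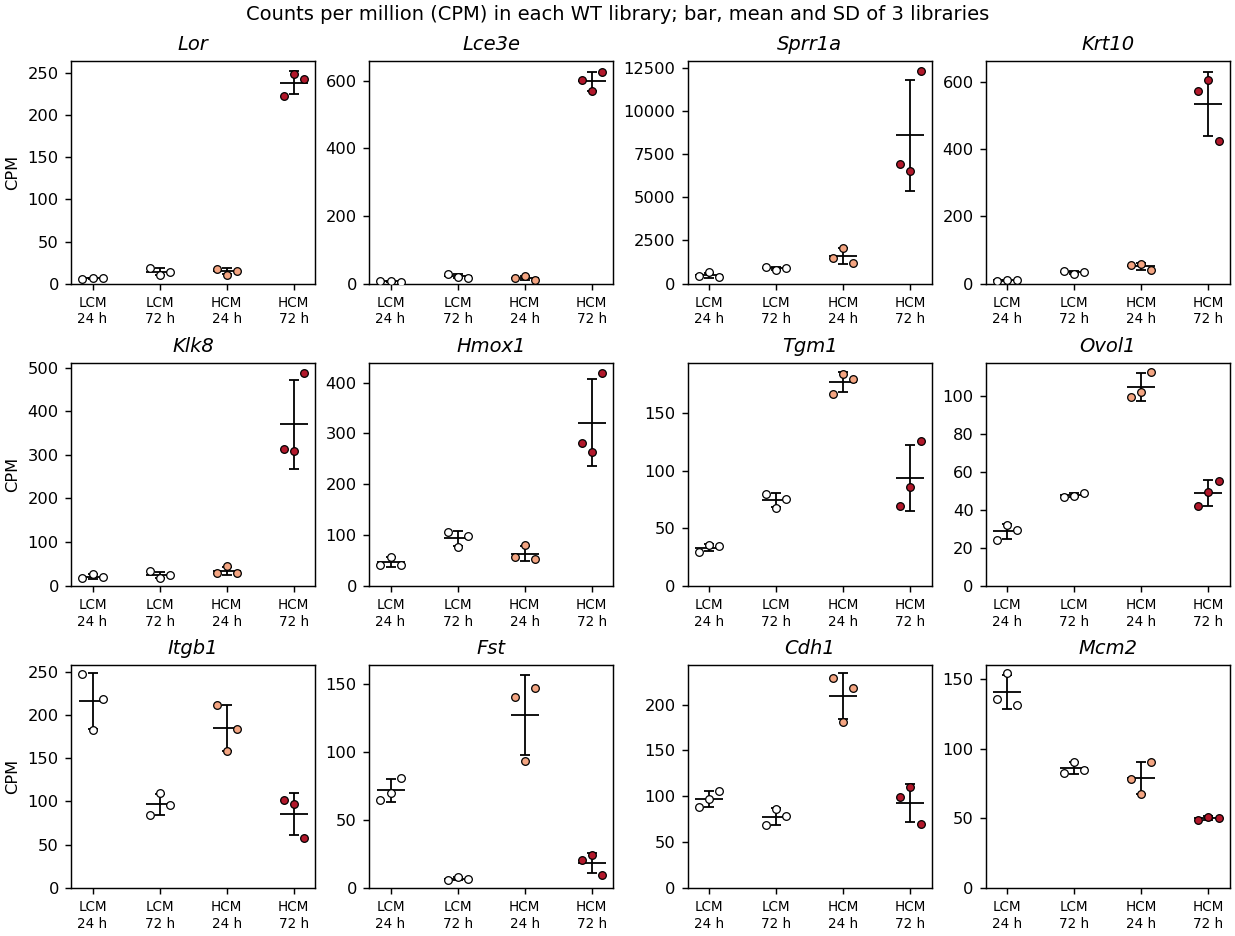
CPM of selected genes in each of the 12 WT libraries, in LCM and HCM at 24 h and 72 h, with a bar for the mean and an error bar for the SD of the 3 libraries of a group. Lor lies between 223 and 249 CPM at 72 h in HCM, above all other WT libraries.

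Suprabasal keratins that passed the test all rose, and basal and stress keratins differed in direction. Of 8 tested suprabasal keratins 5 rose and none fell, with a median of 2.00. Krt10 (chr11:99276072-99280195), the type I keratin of the spinous layer, was at 55.7, 57.2 and 40.2 CPM at 24 h and 573, 604 and 424 CPM at 72 h, without overlap (3.39 ± 0.41 SE, adjusted p = 9.44e-07). Its partner Krt1 rose by 2.55, Krt4 by 2.03, Krt13 by 1.97 and Krt78 by 1.49 on the log2 scale. Of 7 basal and stress keratins 3 rose and 1 fell, beside 1 and none in the fit of the 6 libraries alone, with Krt15 at 1.58, Krt6b at 0.83, Krt16 at 0.75 and Krt17 at -0.68. Krt5 (0.17) and Krt14 (0.37), the keratin pair of basal cells, did not pass the test. Of 6 simple-epithelium keratins 2 rose.

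Among genes of barrier lipids, transglutaminases and skin proteases, 30 of 46 tested rose and 3 fell, with a median of 0.84. With both libraries that stood apart left out, 21 rose and 2 fell, and 19 rose and none fell in the fit of the 6 libraries alone. Spink12, given above, belongs to this list, as do Klk5, Klk6 and Klk8 of the kallikreins, proteases that shed surface cells. Klk6 was at 3.25, 3.52 and 2.85 CPM at 24 h and 31.2, 28.9 and 46.1 CPM at 72 h, with 3.46 ± 0.45 (SE; adjusted p = 2.98e-06). Klk8 rose by 3.43 and Klk5 by 3.24. Transglutaminase 1 (Tgm1), which cross-links the envelope, went the other way and was at 167, 184 and 180.0 CPM at 24 h and 69.6, 85.4 and 126 CPM at 72 h. Its groups did not overlap (-0.92 ± 0.20 SE, adjusted p = 0.00168). Tgm3 (-0.17), the lipoxygenase Alox12b (0.55), the lipid transporter Abca12 (-0.39) and the fatty acid elongase Elovl4 (-0.42) did not pass. Ceramide synthase 3 (Cers3, -0.76) and matriptase (St14, -0.35) were the other members that fell, and each lost its call when 1 of the 6 libraries was left out.

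Of 40 tested transcription factors of keratinocyte fate 9 fell and 6 rose, with a median of -0.03. Klf4, needed for the barrier, fell, with a log2 fold change of -0.88, as did Grhl3 (-1.09), Ovol1 (-1.10) and Zfp750 (-1.07). Ovol1 was at 99.4, 102 and 113 CPM at 24 h and 42.0, 49.3 and 55.4 CPM at 72 h, without overlap. Sox9, a factor of hair follicle progenitors, was at -1.39, and Foxn1, which acts at the start of differentiation, at -1.48. Trp63 (-0.14), which maintains the basal state, did not pass, whereas its relative Trp73 was higher (1.43) and Cebpa was higher by 0.77, a call that ended without TMM factors and with both libraries that stood apart left out. Elf5 and Hopx rose too, by 1.02 to 1.52 and by 0.25 to 0.55 over 15 alternatives, and lost their calls in 6 and 8 of them. In the Notch pathway, which drives exit from the basal layer, 4 of 26 tested members rose and 5 fell. The ligand Jag2 rose by 1.53, the regulator Dtx4 by 1.91 and the target Nrarp by 0.98, the last a call that ended without TMM factors, and the receptor-cleaving protease Adam10 fell (-1.11). In the fit of the 6 libraries alone 2 of the transcription factors rose and none of the Notch genes fell, and without TMM factors or with both libraries that stood apart left out 2 transcription factors rose. Without replicate 3 at 24 h 3 transcription factors rose and 3 Notch genes fell. Of the Notch genes 2 rose without TMM factors, and 3 fell with the offset for gene length and without the filter on low counts.

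Of 21 tested adherens junction genes 8 were lower and 2 higher at 72 h, with a median of -0.53. With both libraries that stood apart left out 5 fell and none rose, without replicate 1 at 24 h 5 fell, and in the fit of the 6 libraries alone 3 fell. None rose without TMM factors, without replicate 1 or 2 at 72 h or without replicate 2 at 24 h. E-cadherin (Cdh1), the main cadherin of these contacts, was at 229, 181 and 218 CPM at 24 h and 99.0, 109.7 and 69.4 CPM at 72 h. The groups did not overlap (-1.17 ± 0.18 SE, adjusted p = 2.60e-05). P-cadherin (Cdh3, -0.66), alpha-catenin (Ctnna1, -0.60) and nectin 2 (Nectin2, -1.11) fell as well. Among 23 tight junction genes 6 fell and 1 rose, with a median of -0.25, and 2 fell in the fit of the 6 libraries alone. The rise ended without TMM factors and with both libraries that stood apart left out. Occludin (Ocln) was at 24.5, 16.2 and 22.4 CPM at 24 h and 9.04, 9.81 and 4.62 CPM at 72 h (-1.41 ± 0.31 SE, adjusted p = 0.00178), with its groups apart, and tricellulin (Marveld2, -1.38), Cldn1 (-0.93), Cldn4 (-0.77) and F11r (-0.66) fell too. Of 14 desmosome genes 2 fell, Dsg2 (-1.27) and Dsg3 (-0.80), both calls that ended when 1 library was left out, beside 4 with DESeq2 and none in the fit of the 6 libraries alone, and plakoglobin (Jup, -0.52) did not pass. The connexins, channel proteins of gap junctions, had 1 member higher, Gjb2 (1.02), and 2 lower among 9 tested, and none of these calls held in the fit of the 6 libraries alone.

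Of 21 tested genes of hemidesmosomes, laminin-332 and integrins 10 were lower and none higher, with a median of -0.56, beside 8 lower and none higher with both libraries that stood apart left out and 3 lower in the fit of the 6 libraries alone. Integrin beta 1 (Itgb1, chr8:129411876-129460618), a subunit shared by many matrix receptors, was at 212, 159 and 183 CPM at 24 h and 101, 97.4 and 57.3 CPM at 72 h. Its log2 fold change was -1.11 ± 0.24 (SE; adjusted p = 0.00141), with its groups apart. The laminin chains Lama3 (-1.65) and Lamb3 (-0.77) fell as well, as did the integrin Itgb6 (-0.73). Of the hemidesmosome genes Col17a1 fell, a call lost in 5 of 15 alternatives. Itga6, Itgb4, Plec and Dst did not pass in the main fit, nor did the integrin Itga3. Over the alternatives Itga6 lay at -0.77 to -0.27, Itgb4 at -0.28 to 0.14 and Plec at 0.09 to 0.55. Dst lay at 0.64 to 1.21 and was called higher in 4. Col7a1, the collagen of anchoring fibrils, was at -1.02 in the same list. In the list of collagens and matrix 10 of 30 tested fell and 2 rose, beside 6 that fell and 1 that rose with both libraries left out and 4 and none in the fit of the 6 libraries alone.

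Cell cycle genes were lower at 72 h in part. Of 60 tested genes of G1/S and DNA replication 27 fell and 1 rose, with a median of -0.48, and of 71 genes of G2/M and mitosis 14 fell and 1 rose, with a median of -0.37. With both libraries that stood apart left out, 15 fell and none rose in the first list, and 12 fell and 1 rose in the second. In the first list 16 fell without replicate 1 and 17 without replicate 3 at 24 h, in the second 8 fell without replicate 3 at 24 h, and in the fit of the 6 libraries alone 4 and 3 fell. The replication licensing factor Cdc6 was at 10.5, 10.7 and 9.38 CPM at 24 h and 4.25, 5.05 and 5.54 CPM at 72 h (-1.05 ± 0.21 SE, adjusted p = 8.14e-04). Mcm2 (-0.65) and Mcm5 (-0.62), parts of the replicative helicase, Rrm2 (-0.74), which supplies deoxynucleotides, cyclin E1 (Ccne1, -0.64), and the checkpoint mediator Clspn (-1.05) fell too. In the G2/M list Mybl2 (-1.04), Prc1 (-0.82), Tacc3 (-0.77) and cyclin A2 (Ccna2, -0.74) fell. The proliferation marker Mki67 (-0.08), Top2a (-0.50), Cdk1 (-0.27), Aurkb (-0.20) and Plk1 (-0.26) did not pass. Among 40 p53 targets and inhibitors of cyclin-dependent kinases 10 rose and 4 fell. Without TMM factors 6 rose and 6 fell, and in the fit of the 6 libraries alone 6 rose and 1 fell. Without replicate 3 at 24 h, without replicate 1 at 72 h, without the filter on low counts or with only WT libraries in the fit 2 fell. The death receptor Fas (1.51), Gadd45a (1.20) and Plk3 (1.20) rose, and the inhibitor p27 (Cdkn1b, -0.88) and Gadd45b (-0.85) fell.

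Metabolic genes that changed were mostly higher. In the hypoxia response 10 of 21 tested genes rose and none fell, with a median of 0.64. The mitophagy receptor Bnip3l was at 90.2, 71.0 and 66.4 CPM at 24 h and 249, 256 and 254 CPM at 72 h (1.74 ± 0.13 SE, adjusted p = 3.02e-10). Bnip3 rose by 2.16, the carbonic anhydrase Car12 by 1.93, Fam162a by 1.91 and Ankrd37 by 1.80. In glycolysis 8 of 22 tested rose and none fell, among them Pfkl (0.83) and Aldoa (0.82). Slc2a1, Gapdh, Pgk1, Eno1 and Ldha did not pass in the main fit, nor did Hk2, which lay at -0.55 to -0.15 over the alternatives. In cholesterol synthesis 10 of 27 rose and 1 fell, with a median of 0.60. Mevalonate kinase (Mvk, 1.11), Mvd (1.38) and squalene synthase (Fdft1, 1.03) rose. Acss2, which makes acetyl-CoA from acetate, rose by 1.96 in the list of fatty acid synthesis, where 3 of 16 rose and 1 fell. In that list 1 rose and none fell without replicate 3 at 72 h or in the fit of the 6 libraries alone, and 1 rose and 1 fell without both libraries that stood apart. With both libraries that stood apart left out, 8, 5 and 8 genes rose in hypoxia, glycolysis and cholesterol synthesis, in that order. Without TMM factors 5 genes rose in glycolysis and 5 in cholesterol synthesis, and the fit of the 6 libraries alone called 4 in glycolysis.

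The counts for the lists of short genes moved with which library was left out. Of 79 tested cytosolic ribosomal protein genes 22 rose and none fell, with a median of 0.89, and 4 rose without replicate 1 and 42 without replicate 2 at 24 h, the extremes over the 6 libraries left out in turn. Without replicate 3 at 24 h 14 rose, without replicate 1 at 72 h 12, without replicate 3 at 72 h 6, with both libraries that stood apart left out 11, and in the fit of the 6 libraries alone 1. Of 75 nuclear-encoded genes of oxidative phosphorylation 6 rose and none fell, with a median of 0.75, and 3 rose without replicate 1 and 18 without replicate 2 at 24 h, 10 with DESeq2, 4 with both libraries that stood apart left out and none in the fit of the 6 libraries alone. The summed level of the ribosomal proteins is given above for each library, and the 24 h library that stood apart lay within the range of the 72 h libraries. With the offset for gene length 22 ribosomal protein genes rose, with a median of 0.73, and 10 genes of oxidative phosphorylation, with a median of 0.47.

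Signalling genes differed by pathway. Of 27 AP-1 and immediate-early factors 6 rose and 3 fell. Egr1, induced within minutes of a growth signal, was at 3.97, 3.02 and 3.31 CPM at 24 h and 24.5, 19.6 and 21.6 CPM at 72 h (2.67 ± 0.24 SE, adjusted p = 5.94e-09), and Maff rose by 1.26. Of 18 EGF receptors and ligands 1 rose and 6 fell. The ligand Epgn (-1.10) and the receptor Erbb2 (-0.60) fell, and Lrig1, which limits signalling by these receptors, rose by 1.34. In TGF-beta and BMP response 3 of 23 rose and 8 fell. Tgfb1 (1.40) and its matrix target Tgfbi (1.09) were higher while the targets Id2 (-1.23) and Id3 (-0.85) were lower. Of 23 YAP/TAZ targets, genes that follow cell spreading and tension, 8 fell and 1 rose, with Ccn2 at -1.46 and Igfbp3 at -1.12. The targets Ccn1 and Amotl2 did not pass in the main fit. Over the alternatives Ccn1 lay at -0.74 to -0.43, called lower in 1, and Amotl2 at -0.25 to 0.18. In the list of actin, myosin and SRF targets 8 of 40 fell and 2 rose, and none rose without TMM factors, with both libraries that stood apart left out or in the fit of the 6 libraries alone. Smooth muscle actin (Acta2), a target of SRF, was at 54.8, 83.6 and 67.9 CPM at 24 h and 15.5, 16.3 and 31.2 CPM at 72 h (-1.72 ± 0.35 SE, adjusted p = 7.46e-04), and Cnn3 (-1.03) and Msn (-0.98) fell. In the Wnt and stem cell list 5 of 23 rose and 5 fell, with the negative feedback gene Axin2 at 1.69, Dkk3 at -1.38 and Cd44 at -0.99. Without any 1 of replicate 1 at 24 h, replicate 3 at 24 h and replicate 3 at 72 h, 3 EGF genes fell and 3 genes of the Wnt list rose and 3 fell. Of the AP-1 factors none fell without replicate 3 at 24 h or in the fit of the 6 libraries alone, and 1 fell without replicate 1 at 24 h, without replicate 3 at 72 h or without both libraries that stood apart. In the fit of the 6 libraries alone 3 EGF genes, 3 of TGF-beta and BMP response and 4 YAP/TAZ targets fell, and without TMM factors 13 genes of the actin list fell.

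Among cytokines, chemokines and alarmins 12 of 35 tested rose and 4 fell, with a median of 1.32. The protease inhibitor Slpi was at 118, 231 and 149 CPM at 24 h and 1204, 1095 and 1836 CPM at 72 h, without overlap (3.05 ± 0.34 SE, adjusted p = 1.98e-07). S100a7a rose by 2.72, and Il36rn, the antagonist of the IL-36 receptor, by 2.20. The neutrophil chemokine Cxcl5 fell (-1.97). Of 36 genes of the integrated and ER stress responses 3 rose and 7 fell. The ER chaperones Hspa5 (-1.10), Hsp90b1 (-1.12), Hyou1 (-1.04) and Calr (-0.97) fell, whereas Ppp1r15a, which reverses translational arrest, rose by 1.17. Of 30 NRF2 targets 9 rose and none fell, with a median of 0.20. The targets Nqo1, Gclc and Gclm did not pass in the main fit. Over the alternatives they lay at -0.18 to 0.26, -0.87 to -0.43 and -0.38 to 0.06, in that order, with Gclc called lower in 1. Heme oxygenase 1 (Hmox1) was at 56.9, 79.8 and 53.2 CPM at 24 h and 280.5, 264 and 419 CPM at 72 h (2.34 ± 0.21 SE, adjusted p = 3.54e-09), and Gsta1 (1.92), Fth1 (1.66) and Srxn1 (1.61) rose. In lysosome and autophagy 15 of 41 rose and 1 fell, with the autophagosome proteins Map1lc3a at 1.48 and Map1lc3b at 1.11, and the lysosomal enzymes Ctsa at 1.16 and Ctsd at 0.84. Interferon-stimulated genes had 3 of 22 members higher and 2 lower, shares near those of all genes, and none was higher without TMM factors, without a filter on low counts or without replicate 3 at either time. The circadian clock had 3 of 18 higher and 3 lower, beside 1 and 1 in the fit of the 6 libraries alone, 1 higher without TMM factors or without the filter and 6 higher with the offset for gene length, with Dbp at 1.75 and Per1 at -0.84. In calcium entry, storage and extrusion 6 of 27 rose and 3 fell, with the calmodulin-like protein Calml3 of differentiating cells at 2.77 and the mitochondrial calcium uniporter Mcu at 0.75. Of 16 genes of epithelial-mesenchymal transition 1 rose and 3 fell. In the fit of the 6 libraries alone 7 of the cytokines, 4 NRF2 targets, 6 genes of lysosome and autophagy, 1 of calcium entry and 1 stress gene rose, and 3 stress genes and 1 of calcium entry fell. With the offset for gene length 6 stress genes rose. Without replicate 3 at 72 h 1 gene of calcium entry fell. Without replicate 2 at 24 h 5 genes of epithelial-mesenchymal transition fell. Without TMM factors, and also with both libraries that stood apart left out, 9 genes of lysosome and autophagy and 2 of calcium entry rose, and without these factors 3 and 5 fell.

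**Figure D4:**
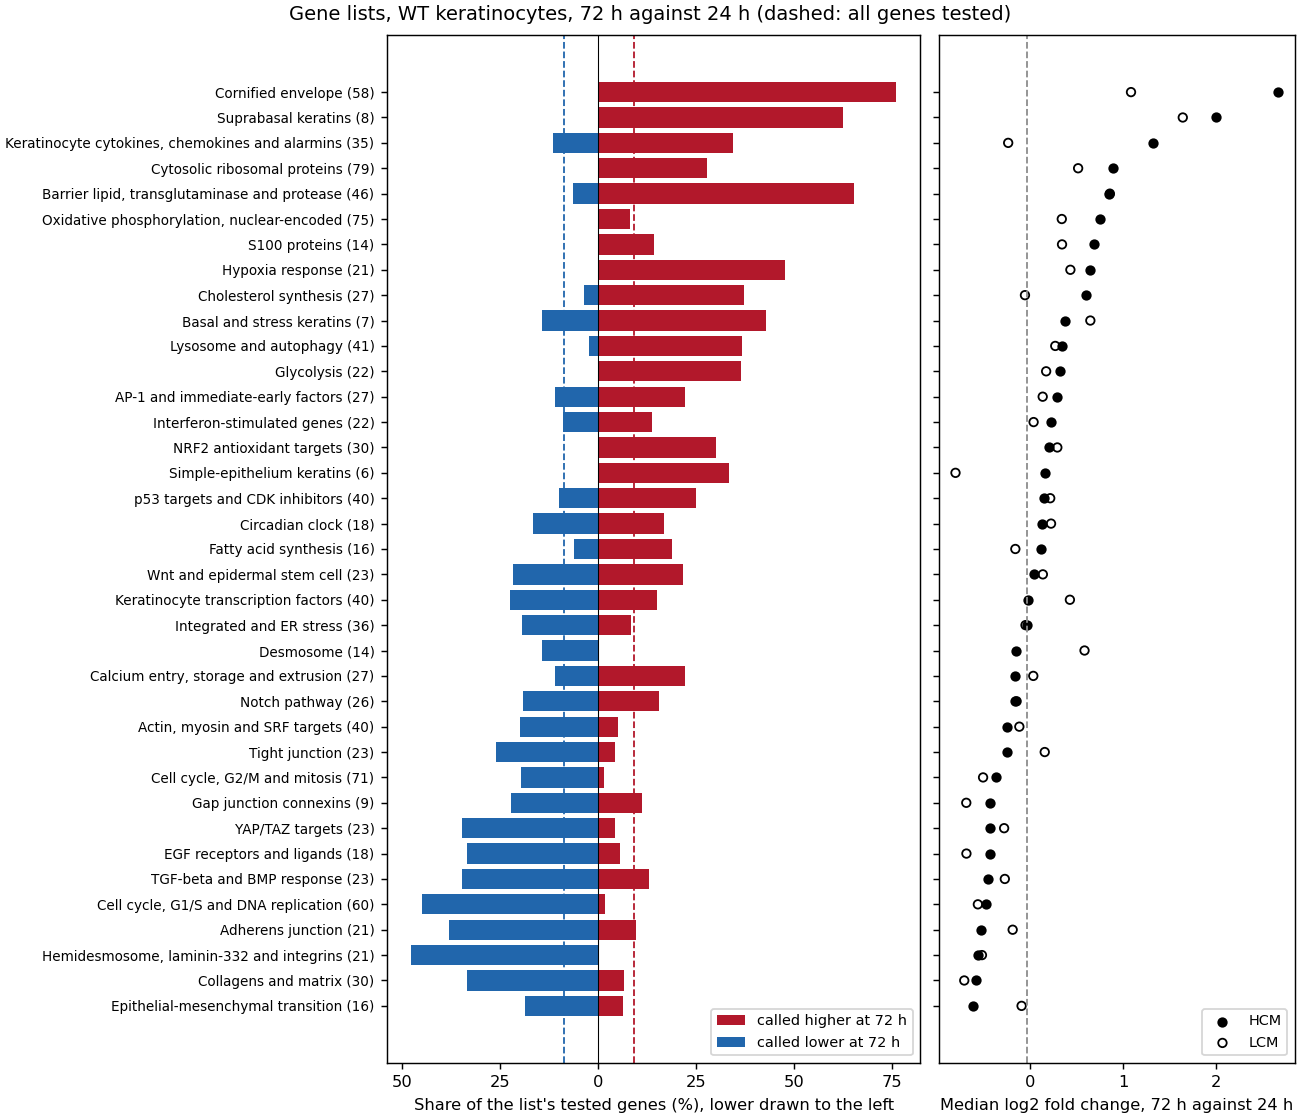
Share of the tested members of each gene list that rose or fell between 24 h and 72 h (percent) and the median log2 fold change of each list, filled points for WT in HCM and open points for WT in LCM, with dashed lines for all genes tested. Cornified envelope genes have the highest median, 2.67, and 44 of 58 members higher.

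Markers of keratinocytes were abundant and those of other cell types were low. The summed level of 10 tested keratinocyte markers was 45940 to 53460 CPM at 24 h and 55990 to 64800 CPM at 72 h, with none of the 10 higher and 3 lower. Fibroblast markers summed to 5.75 to 10.46 CPM at 24 h and 8.82 to 11.98 CPM at 72 h, with 1 of 6 tested higher, and the fibrillar collagens Col1a1, Col1a2 and Col3a1 were at or near 0. Markers of melanocytes summed to 0.29 to 0.92 CPM, of Langerhans and immune cells to 0.18 to 1.08, of endothelial cells to 2.46 to 5.87, of Merkel cells to 6.08 to 9.53 and of hair follicle and sebocytes to 1.73 to 3.94 over the 6 libraries.

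The change with time in HCM was then set against that of the same cells in LCM. In LCM 800 genes (5.29%) were higher and 705 (4.66%) lower at 72 h. Of the 2697 genes called in HCM 613 (22.7%) were called in LCM in the same direction, which was 40.7% of the calls in LCM. The difference of both changes was tested in the same model and passed for 657 genes (4.35%), 337 (2.23%) with the larger value in HCM and 320 (2.12%) with the larger value in LCM. From Lor to Lce1m 26 of 47 tested genes passed with the larger value in HCM and none with the larger value in LCM. The Lce1 family rose by a median of 5.21 in HCM, beside 1.63 in LCM, with 13 of 14 members passing the test of the difference. All 6 Lce3 members passed, with medians of 4.78 and 1.31, but 1 of 12 Sprr2 genes. Lce1g had the largest difference of the protein-coding genes above 5 CPM on average that passed, 4.37 ± 0.52 (SE; adjusted p = 3.81e-06), and was at 3.38, 4.32 and 1.87 CPM at 24 h and 6.17, 5.23 and 4.41 CPM at 72 h in LCM, beside 3.30, 5.17 and 2.96 CPM at 24 h and 124, 114 and 149 CPM at 72 h in HCM. Lce1j (4.35), 2210017I01Rik (4.35) and Lce1i (4.34) came close to Lce1g. Over the alternatives Lce1j reached 4.76 and 2210017I01Rik 4.96, against 4.63 for Lce1g, so the first rank is not firm. Lce1g lay at 4.01 or above and kept its call in all 15, the offset for gene length among them. The measure of short against long genes was -0.70, -0.30 and -0.75 at 24 h and -0.28, -0.66 and -0.56 at 72 h in LCM. Lor rose by 1.22 in LCM, and its difference was 2.82 (adjusted p = 7.48e-04). Klk6 had a log2 fold change of -0.73 in LCM and a difference of 4.19 (adjusted p = 4.08e-04). Slpi was at 31.9, 53.7 and 49.6 CPM at 24 h and 42.2, 39.6 and 30.7 CPM at 72 h in LCM (-0.26), and its rise in HCM was larger by 3.32 (adjusted p = 2.34e-05). Egr1 was at 3.01, 3.50 and 3.54 CPM at 24 h and 4.96, 5.11 and 5.64 CPM at 72 h in LCM, with a difference of 2.03 (adjusted p = 2.25e-04). Ivl did not pass in LCM (-0.08, adjusted p = 0.909), and its difference was 1.40 (adjusted p = 0.0278), a call that ended without TMM factors (adjusted p = 0.117) and with the offset for gene length (adjusted p = 0.0558). Hmox1 rose in both media, by 1.02 in LCM, with a difference of 1.32 (adjusted p = 0.00384). For other genes the change was of like sign in LCM and the difference did not pass, as for Krt10 (1.81, difference 1.58, adjusted p = 0.102) and Fst (-3.40, difference 0.61, adjusted p = 0.624). In the list of cytokines 8 of 35 members had the larger value in HCM and 1 the larger value in LCM, and in cholesterol synthesis 6 of 27 and none. In the cytokine list 5 had the larger value in HCM without replicate 3 at 24 h, and in cholesterol synthesis 2 without the filter on low counts and with both libraries that stood apart left out.

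Some genes moved in opposite directions in the media. Il33 was at 20.5, 17.7 and 15.6 CPM at 24 h and 43.4, 54.0 and 64.5 CPM at 72 h in LCM, a log2 fold change of 1.59, and the difference was -3.84 ± 0.32 (SE; adjusted p = 3.37e-08). Tgm1 rose by 1.18 in LCM (adjusted p = 2.40e-04) and fell in HCM, with a difference of -2.10 (adjusted p = 1.98e-05). Of the keratinocyte transcription factors 12 of 40 had the larger value in LCM and 1 the larger value in HCM, and the list's median was 0.42 in LCM. Without TMM factors 6 had the larger value in LCM. Foxn1 was at 12.5, 12.5 and 12.2 CPM at 24 h and 28.2, 28.5 and 25.8 CPM at 72 h in LCM and 32.7, 28.8 and 27.8 CPM at 24 h and 9.04, 12.9 and 9.95 CPM at 72 h in HCM, with a difference of -2.63 ± 0.24 (SE; adjusted p = 7.74e-08). Ovol1 had 0.74 in LCM and -1.10 in HCM, a difference of -1.84 (adjusted p = 3.81e-06). Lce1f ran the other way, with -1.51 in LCM and 2.65 in HCM. Lrig1 had -1.01 in LCM and 1.34 in HCM, and its difference was 2.35 (adjusted p = 8.60e-06).

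**Figure D5:**
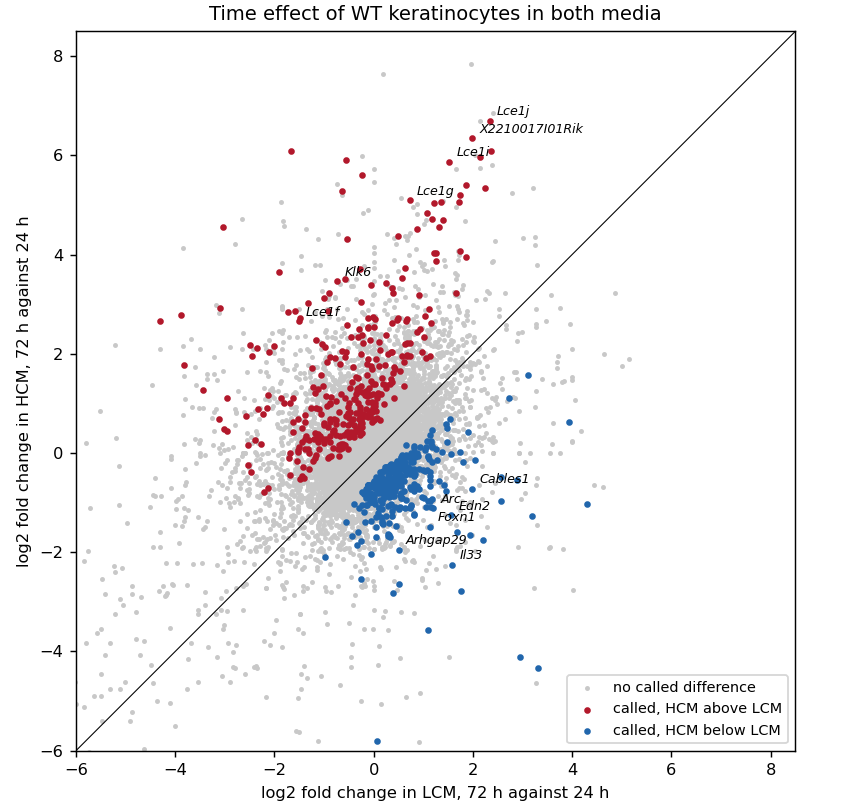
Log2 fold change of 72 h against 24 h in LCM (horizontal axis) and in HCM (vertical axis) for the genes tested, red where the difference passed with the larger value in HCM and blue where it passed with the larger value in LCM, and with 106 genes outside the axes of -6 to 8.5. Il33 lies at 1.59 in LCM and -2.25 in HCM, and Lce1f at -1.51 and 2.65.

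In PKP4-KO the read distribution over gene length moved with time. The measure of short against long genes given above was 1.89, 2.09 and 1.79 in the 3 libraries at 72 h and -0.43, -0.77 and 0.83 at 24 h, and ribosomal protein genes were at 493116 to 606083 CPM at 72 h and 99512 to 189664 CPM at 24 h. These CPM carry TMM factors of 0.48 to 0.55 at 72 h and 0.98 to 1.15 at 24 h. They therefore exaggerate the rise as a share of counts. The shift in read distribution and time cannot be told apart in PKP4-KO. In PKP4-KO cells in HCM 3677 genes (24.3%) were higher and 4750 (31.4%) lower at 72 h. Of the 2697 genes called in WT 1725 (64%) were called there in the same direction, which was 20.5% of the calls in PKP4-KO. The difference of the changes passed for 4018 genes (26.6%), 2390 (15.8%) with the larger value in WT and 1628 (10.8%) with the larger value in PKP4-KO. Without TMM factors the median difference over all genes moved from 0.07 to 0.90. In the cornified envelope list 22 of 58 tested genes had the larger value in PKP4-KO and 8 the larger value in WT, beside 19 and 14 without TMM factors and 24 and 14 with the offset for gene length. The barrier list had 35 of 46 with the larger value in PKP4-KO and 3 with the larger value in WT, beside 27 and 7 without TMM factors. Of the cell cycle genes 43 of 60 in G1/S and 51 of 71 in G2/M had the larger value in WT and none the larger value in PKP4-KO, beside 57 and 67, and again none, without TMM factors, and the medians in PKP4-KO were -1.71 and -1.53. Lor was at 3.36, 2.59 and 2.66 CPM at 24 h and 41.9, 35.5 and 44.0 CPM at 72 h in PKP4-KO, with 3.81 on the log2 scale and a difference of 0.22 (adjusted p = 0.788). Without TMM factors the difference of Lor was 1.02 (adjusted p = 0.139), and neither value shows that the changes were equal. Krt10 was at 135, 110.2 and 80.9 CPM at 24 h and 4705, 3986 and 4620 CPM at 72 h, a rise of 5.35 that exceeded that of WT (difference -1.96, adjusted p = 0.00696), a call that ended without TMM factors (-1.09, adjusted p = 0.0814). Sprr1a was at 202, 159 and 265 CPM at 24 h and 12710, 10850 and 7943 CPM at 72 h, and its difference was -3.22 (adjusted p = 4.18e-06), beside -2.44 without TMM factors (adjusted p = 8.53e-07). At 72 h, on CPM with TMM factors, Krt10 lay above the range of WT in every PKP4-KO library, and the ranges of Sprr1a overlapped. Cdc6 was at 21.3, 23.5 and 20.1 CPM at 24 h and 2.92, 2.76 and 3.86 CPM at 72 h, with a difference of 1.71 (adjusted p = 1.23e-04), beside 2.53 without TMM factors (adjusted p = 6.93e-06). Cdh1 was at 85.5, 84.8 and 79.1 CPM at 24 h and 72.8, 64.0 and 60.1 CPM at 72 h, a change of -0.34 (adjusted p = 0.104) beside -1.17 in WT, and the difference was -0.83 (adjusted p = 0.0144). Without TMM factors Cdh1 fell by 1.41 in PKP4-KO (adjusted p = 6.80e-05) and the difference was 0.02 (adjusted p = 0.982), so whether its change differed from that of WT depends on the scaling. Ocln rose by 1.38 in PKP4-KO and fell in WT, with a difference of -2.80 (adjusted p = 4.53e-05). Without TMM factors the change of Ocln in PKP4-KO was 0.30 (adjusted p = 0.542) and the difference -1.93 (adjusted p = 0.00801). Egr1 was at 6.06, 7.07 and 9.01 CPM at 24 h and 7.24, 4.94 and 3.63 CPM at 72 h in PKP4-KO, with a difference of 3.15 (adjusted p = 4.17e-08), beside 3.96 without TMM factors (adjusted p = 1.65e-08). The stretch from Lor to Lce1m took 0.292, 0.228 and 0.269% of the counts of PKP4-KO at 24 h and 2.25, 1.87 and 1.76% at 72 h. Without TMM factors 7328 genes differed, 90.2% of them with the larger value in WT, against 59.5% with these factors, so the share in each direction depends on the scaling. With the offset for gene length 4039 genes differed, 50.2% of them with the larger value in WT.

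In Rescue cells in HCM 2063 genes (13.6%) were higher and 1613 (10.7%) lower at 72 h. Of the 2697 genes called in WT 1120 (41.5%) were called in Rescue in the same direction, 30.5% of the calls there. The difference passed for 1583 genes (10.5%), 721 (4.77%) with the larger value in WT and 862 (5.70%) with the larger value in Rescue. Lor was at 45.8, 55.3 and 34.5 CPM at 24 h and 94.2, 91.5 and 55.3 CPM at 72 h in Rescue, with 0.83 on the log2 scale and a difference of 3.20 ± 0.50 (SE; adjusted p = 1.49e-04), and its 3 libraries at 24 h were above those of WT. The stretch from Lor to Lce1m took 0.904, 0.903 and 0.785% of the counts of Rescue at 24 h and 3.45, 3.09 and 3.08% at 72 h. In cholesterol synthesis 13 of 27 genes had the larger value in Rescue and none the larger value in WT, with a median of 1.37 in Rescue beside 0.60 in WT. In the G1/S list 18 of 60 had the larger value in Rescue and 1 the larger value in WT, and the median in Rescue was 0.04. With both libraries of WT that stood apart left out these counts were 8 for cholesterol synthesis and 9 for G1/S. Leaving out 1 library of WT in turn gave 5, without replicate 1 at 24 h, to 14 for the first and 7, without replicate 3 at 72 h, to 21 for the second. Krt1 was at 19.2, 20.3 and 11.8 CPM at 24 h and 17.8, 18.1 and 17.5 CPM at 72 h in Rescue, a change of 0.06, and the difference was 2.49 (adjusted p = 0.0173). Cdh1 was at 210.5, 228 and 224 CPM at 24 h and 99.5, 94.3 and 82.9 CPM at 72 h, with a difference of 0.08 (adjusted p = 0.857) and log2 fold changes of -1.26 in Rescue and -1.17 in WT. Cdc6 was at 2.94, 4.23 and 5.96 CPM at 24 h and 5.88, 5.69 and 5.28 CPM at 72 h, lower at 24 h than in any WT library at that time, with a difference of -1.40 (adjusted p = 0.00313). The hypoxia gene Bnip3 rose by 5.18 in Rescue, a difference of -3.02 (adjusted p = 3.57e-06), and Akap12 had 1.28, a difference of -3.31 (adjusted p = 1.56e-05).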

How the data were processed

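By their labels the 36 libraries form 12 groups of 3, 1 for each genotype (WT, PKP4-KO, Rescue), medium and time. The authors sequenced poly(A) RNA as strand-specific read pairs and deposited raw counts per gene, whole numbers without normalization. The submitters' processing notes name HISAT2 2.1.0, SAMtools 1.10, featureCounts 2.0.0 and mm39 (GRCm39). The strand setting of the counting is not given in the sources used here, so a gene and an antisense partner may share reads. All 37 mitochondrial genes were at 0 in the 6 libraries.

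Genes were kept with filterByExpr and tested with the quasi-likelihood test of edgeR 4.0.16 (glmQLFit, glmQLFTest, TMM factors, R 4.3.3). All 36 libraries entered 1 model with 12 group means, which left 24 residual degrees of freedom. Benjamini-Hochberg adjustment covered the 15114 genes tested, the threshold was an adjusted p of 0.05, and differences between changes were contrasts of the same model. The script was tested on simulated data. CPM values carry TMM factors. Each log2 fold change is the value at 72 h against that at 24 h. Plots were drawn with matplotlib 3.10.9 under python 3.11.15.

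The members and gene lists were chosen with earlier results of these data known. Named genes were key list members and, of the others, up to 4 called members in each direction above a mean of 5 CPM, the 12 largest rises and falls among protein-coding genes without overlap, and the 6 largest in each direction for each difference, by the same mean over the groups compared. Some genes that the rule names are not reported here. Of 1292 list symbols 1290 were found. Alternatives were DESeq2 1.42.0, no TMM factors, other filters, other sets of libraries in the fit, each library left out and a replicate block. Leaving out both libraries that stood apart and an offset for gene length were added after the data had been seen. Within the WT groups in HCM no library was a copy of another, since the chi-square per gene between replicates was at least 6.91.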

Additional observations from a re-analysis of the deposited data

Results flagged for a closer look

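The change between 24 h and 72 h in WT in HCM differed, by a test of the difference itself, from that of WT in LCM for 657 genes, from that of PKP4-KO in HCM for 4018 and from that of Rescue in HCM for 1583. The values below are differences of log2 fold changes, WT in HCM less the other set, for the 6 largest in each direction among protein-coding genes that passed the adjusted p of edgeR's quasi-likelihood test and had a mean of at least 5 CPM over the groups compared. A gene with few counts in WT can be among them.

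Against WT in LCM, the positive differences were 4.37 for Lce1g, 4.35 for Lce1j, 4.35 for 2210017I01Rik, 4.34 for Lce1i, 4.19 for Klk6 and 4.16 for Lce1f, of which 5 are genes of the cornified envelope region. The negative ones were -3.84 for Il33, -2.82 for the vasoactive peptide Edn2, -2.70 for Cables1, -2.63 for Foxn1, -2.45 for Arhgap29 and -2.31 for the immediate-early gene Arc.

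Against PKP4-KO, the positive differences were 4.74 for the Notch regulator Dtx4, 4.33 for Gpsm1, 3.79 for Lce1g, 3.74 for netrin 4 (Ntn4), 3.70 for Trp73 and 3.45 for the ligand Wnt3a. The negative ones were -8.40 for Cphx1, -7.83 for the inflammasome adaptor Pycard, -7.51 for Sprr2b, -7.44 for cornulin (Crnn), -6.26 for the cytokine Tslp and -6.23 for Cyp2b10. Cphx1 had 2 counts in total at 24 h and 0 at 72 h in WT, so that its fitted difference is not a bound and gives no rank, and its call ended without replicate 1 at 24 h, without replicate 2 at 24 h and without both libraries that stood apart. Crnn had 7 and 8 counts in WT, so its difference rests on counts in PKP4-KO. The size of these differences depends on the scaling. Without TMM factors Dtx4 was at 5.54, Gpsm1 at 5.12, Lce1g at 4.58, Ntn4 at 4.56, Trp73 at 4.54 and Wnt3a at 4.28, and Cphx1 was at -7.33, Pycard at -6.93, Sprr2b at -6.74, Crnn at -6.60, Tslp at -5.44 and Cyp2b10 at -5.37, each still called.

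Against Rescue, the positive differences were 4.39 for the metallothionein Mt4, 3.94 for the cytokine Il36a, 3.81 for Kcnip3, 3.43 for Ms4a10, 3.20 for Lor and 3.19 for the colony-stimulating factor Csf3. The negative ones were -4.13 for Gpnmb, -3.31 for Akap12, -3.27 for Papss2, -3.02 for Bnip3, -2.95 for Gpr50 and -2.87 for Atp1b1. Mt4 ranged from 3.04 to 6.43 over the 13 alternatives and lost its call in 4, without replicate 3 at 72 h, without replicate 1 or replicate 3 at 24 h and with only the groups compared in the fit (adjusted p up to 0.204). Gpnmb lost its call without replicate 1 at 24 h (adjusted p = 0.158).

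The sequence of the transgene was counted as a feature of its own, and it had counts in WT libraries, whose labels name no transgene. These were 48, 113 and 48 counts at 24 h and 19, 14 and 20 counts at 72 h in HCM. Their origin was not tested.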

How the results depend on the processing

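Of the 4 counts of called genes, that of 72 h against 24 h was 2697 and fell to 716 with only the groups compared in the fit and to 1668 with both libraries that stood apart left out. The difference from LCM rose from 657 to 988 with DESeq2 and was 396 without a filter on low counts, that from PKP4-KO rose from 4018 to 7328 without TMM factors, and that from Rescue was 876 in place of 1583 without the filter. Leaving out 1 library in turn gave 1720 to 2901 genes for the main comparison, 485 to 658 against LCM, 3155 to 4920 against PKP4-KO and 907 to 1927 against Rescue. Counts more than 1.5 times below the main ones came without replicate 1 at 24 h (1720 and 907, against Rescue) and without replicate 3 at 72 h (1788 and 1018). Other settings kept each count within 1.5 times of its main value, with 1827 to 3144 genes for the main comparison. The causes were not tested. Of the 238 named genes called, 71 lost their call when 1 of the 6 libraries was left out, and none reversed.

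The share of calls in the positive direction moved without TMM factors from 51.3 to 30% for the main comparison, and against Rescue from 45.5 to 28.5%. With only the groups compared in the fit the share moved the other way for the main comparison, to 66.3%, with 475 higher and 241 lower. With DESeq2 it moved from 59.5 to 49.1% against PKP4-KO, and with the length offset to 50.2%. Without TMM factors the medians of the simple-epithelium keratins (0.16 to -0.10), Wnt and stem cell genes (0.03 to -0.20), NRF2 targets (0.20 to -0.04), fatty acid synthesis (0.11 to -0.12), p53 targets (0.15 to -0.07), the circadian clock (0.12 to -0.11) and fibroblast markers (0.18 to -0.02) changed sign. Of the libraries of equal number those of replicate 1 deviated together (r = 0.394 across genes) and those of replicates 2 and 3 did not (-0.602 and -0.288), so the numbers were not taken to pair them. With a replicate block 2581, 634, 3902 and 1493 genes were called, in the order above. Depth limits genes near the floor of 3 counts, and 3 libraries a group limit every comparison.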
